A study of Mus musculus with 32 samples.

Results

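Messenger RNA of 10 mouse genes of the IL-1, TNF and inflammasome axis was followed through 32 sequencing libraries in 10 groups. The genes were taken by symbol from 4 tables of counts per gene, holding between 22799 and 23955 genes, and all 10 were present in every table. The study compared cells with and without the transcription factor PRDM16, or one of its isoforms, which are known as full-length f-PRDM16, with a PR domain, and short s-PRDM16, without it. Leukaemic MLL-AF9 cells were sorted from moribund mice and sequenced without culture in 4 groups of 3 libraries. These were PRDM16-KO cells overexpressing s-PRDM16 (KO+s), PRDM16-KO cells overexpressing f-PRDM16 (KO+f), PRDM16-KO cells labelled EV (KO+EV) and wild-type cells labelled EV (WT+EV), so that all 4 carry MLL-AF9. The other libraries were from normal haematopoietic stem cells (HSCs), sorted as Lin-cKit+Sca1+CD48-. They comprised adult bone marrow with 4 PRDM16-KO and 4 wild-type libraries, fetal liver with 3 total PRDM16-KO and 3 wild-type libraries, and a separate fetal liver set, named 47bp in the labels, with 3 f-PRDM16-KO and 3 wild-type libraries. The short names of the marrow and total-KO fetal libraries carry VAV, which the labels do not explain further. The f-PRDM16-KO libraries are labelled as keeping s-PRDM16 only. The labels give no ages and no number of animals behind a library, and they do not say whether leukaemia replicates came from separate transductions. P-values therefore measure the spread between these libraries.

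As background, IL-1 alpha (Il1a) and IL-1 beta (Il1b) signal through a receptor that needs the accessory protein Il1rap. The antagonist Il1rn occupies that receptor without signalling, and the decoy receptor Il1r2 binds IL-1 without passing the signal on. The sensor Nlrp3 and the protease Casp1 form an inflammasome, which cuts the IL-1 beta precursor into its active form. The cytokine Tnf induces many genes through NF-kB, among them Tnfaip2 and Tnfaip3, and Tnfaip3 encodes A20, an enzyme that restrains NF-kB in turn.

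Promoters of 4 members are shown because 3 of them carried a match to the NF-kB consensus and the fourth, Il1rn, behaved differently in leukaemia. The sequences are RefSeq promoters of build GRCm38.p6, which is not the build of the counts and was matched by symbol only. Each runs 5′ to 3′ from 250 bases before to 50 after a start site, which is position 0, and capitals mark matches.
Tnfaip3, first start site, minus strand, chr10:19015361-19015660: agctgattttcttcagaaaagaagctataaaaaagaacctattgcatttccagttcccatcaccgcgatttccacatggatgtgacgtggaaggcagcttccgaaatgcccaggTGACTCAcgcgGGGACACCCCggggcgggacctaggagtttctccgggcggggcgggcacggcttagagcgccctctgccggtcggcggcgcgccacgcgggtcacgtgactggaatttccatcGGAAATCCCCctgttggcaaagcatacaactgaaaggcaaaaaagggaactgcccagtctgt
Tnfaip2, plus strand, chr12:111442411-111442710: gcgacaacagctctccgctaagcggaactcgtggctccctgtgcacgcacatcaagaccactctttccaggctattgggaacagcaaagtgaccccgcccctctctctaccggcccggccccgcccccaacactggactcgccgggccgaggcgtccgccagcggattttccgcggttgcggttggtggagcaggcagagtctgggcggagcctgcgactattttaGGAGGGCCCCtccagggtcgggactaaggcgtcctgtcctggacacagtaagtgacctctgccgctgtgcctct
Nlrp3, second start site, plus strand, chr11:59541319-59541618: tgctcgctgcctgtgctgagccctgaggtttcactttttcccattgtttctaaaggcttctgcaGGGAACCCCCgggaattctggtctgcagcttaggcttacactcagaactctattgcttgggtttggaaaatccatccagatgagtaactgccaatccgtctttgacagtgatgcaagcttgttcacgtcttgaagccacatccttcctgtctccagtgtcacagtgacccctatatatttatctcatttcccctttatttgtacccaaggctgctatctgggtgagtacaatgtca
Il1rn, first start site, plus strand, chr2:24336610-24336909: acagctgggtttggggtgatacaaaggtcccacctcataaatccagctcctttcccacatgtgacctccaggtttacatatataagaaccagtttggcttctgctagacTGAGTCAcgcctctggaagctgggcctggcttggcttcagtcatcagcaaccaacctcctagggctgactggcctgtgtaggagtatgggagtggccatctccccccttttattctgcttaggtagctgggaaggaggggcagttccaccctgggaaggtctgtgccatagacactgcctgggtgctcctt
Tnfaip3 held 2 NF-kB matches, at -125 to -116 and at -12 to -3, and 1 AP-1 match (TGAGTCA or TGACTCA) at -136 to -130. Tnfaip2 held an NF-kB match at -24 to -15 on the strand opposite to the gene, and Nlrp3 one at -186 to -177. Il1rn had no NF-kB match and an AP-1 match at -141 to -135. Il1a, Il1b, Il1r2, Il1rap, Casp1 and Tnf had no NF-kB match in this window either. Of these, Il1b, Il1r2, Casp1 and Tnf were higher in KO+s than in KO+EV, like the members with a match. A link between matches and levels was not tested. Il1a, whose promoter is not printed, had an AP-1 match at -12 to -6. Among 32851 promoters of the same length, 8.46% held the NF-kB consensus on either strand and 5.2% the AP-1 letters. None of the members' 14 promoters held the letters GAGGAAGT (3.2% of all promoters), TTGCNNAA (10.8%) or TGACGTCA (1.79%). These matches describe letters in a window, and binding was not measured.

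Total counts were 16353584 to 23785307 per leukaemia library and 22490805 to 44952448 per HSC library. Levels are given as CPM, which are counts per 1000000 of a library's counts, after TMM scaling within a table. Members' levels were tested only within a table, since the tables were prepared separately. Across tables, only differences between knockout changes were tested. In leukaemia, Prdm16 had 312, 241 and 192 CPM in KO+s, 331, 234 and 236 CPM in KO+f libraries, 3 counts in all in KO+EV, and 0.991, 0.723 and 0.424 CPM in WT+EV. In adult marrow Prdm16 averaged 30.1 ± 13.3 CPM in KO and 30.7 ± 17.9 CPM in wild type (SD, n = 4 each), and a count over the whole gene cannot show the loss of a part of it. It averaged 19.9 ± 7.49 CPM in total-KO fetal HSCs and 34.1 ± 8.04 CPM in their wild type, and 8.03 ± 1.61 CPM in f-PRDM16-KO and 22.0 ± 9.63 CPM in its wild type (SD, n = 3 each). All 10 HSC and progenitor markers were detected in every HSC group. Their summed levels were 3840 to 4690 CPM in marrow KO and 2960 to 4620 CPM in its wild type. They were 1560 to 1800 CPM in total-KO fetal HSCs and 1730 to 1980 CPM in their wild type. In the f-PRDM16 set they were 1390 to 1920 CPM in KO and 1910 to 2750 CPM in wild type. The list's median log2 changes were 0.10, -0.39 and -0.81 in these sets, with no marker passing. The gene for CD48, by which cells were excluded from the sort, is given within each table. It had 54.6 to 188 CPM in f-PRDM16-KO and 21.5 to 164 CPM in its wild type, which overlap. In the total-KO fetal set it had 21.8 to 32.5 CPM in KO and 12.8 to 17.6 CPM in wild type, without overlap. In marrow it had 5.81 to 23.9 CPM in KO and 12.7 to 24.4 CPM in wild type. It passed in none of these comparisons, and its part in the members' values was not tested. In these bulk libraries, fewer cells of a type cannot be told apart from less RNA per cell.

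One leukaemia library stood apart before any comparison. The third KO+EV library had a summed level of 14 granulocyte markers of 58060 CPM, against 12850 and 12870 CPM in its 2 replicates. The KO+s libraries had 25660 to 29350 CPM, the KO+f libraries 12500 to 17450 CPM and the WT+EV libraries 10270 to 17640 CPM. The 10 immediate early genes listed, which respond quickly to signals, summed to 2056 to 4197 CPM in KO+s, 868.2 to 2960 CPM in KO+f libraries, 286.5 to 1407 CPM in KO+EV and 1619 to 5007 CPM in WT+EV. Members are therefore also given without the third KO+EV library where it mattered.

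The first question was what PRDM16 loss did to these genes in leukaemia. KO+EV cells had less Nlrp3 and Tnf than WT+EV cells, and no member passed in the other direction. That was 2 of 9 members tested (Il1a was too low), against 2.1% of all 12958 genes called in either direction by edgeR at an adjusted p under 0.05, 1.2% lower and 0.903% higher. The median log2 change was -1.14 over the 9 members and 0.00217 over all genes. Members and lists were chosen with earlier results of these data known. Counts and medians set beside those of all genes, here and below, therefore describe them and are no independent test. With these groups fitted alone 1 gene passed, and it was no member. Of 10 immediate early genes 4 passed lower and none higher. Of 14 granulocyte markers 5 passed lower and 1 higher, with a median log2 change of -1.54, although their summed levels, given above, were not lower in KO+EV. The part of both lists in the result was not tested.

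Adding s-PRDM16 back, with Prdm16 8.46 log2 units above WT+EV (edgeR adjusted p = 8.39e-08), raised most of the axis. KO+s exceeded KO+EV for Il1b, Il1r2, Nlrp3, Casp1, Tnf, Tnfaip2 and Tnfaip3, which is 7 of 9 members, with none lower, against 32.4% of all genes called in either direction, 15.9% higher and 16.6% lower. The median log2 change was 1.70 over the members and -0.01 over all genes. As the members were not chosen independently of these data, this excess is descriptive only. The count was 7 in every fit that left out 1 library and under every alternative setting tried. Among the markers, 7 of 10 immediate early genes, 8 of 14 granulocyte and 6 of 10 monocyte and macrophage genes passed higher, with none, 1 and 2 lower, and their part in the result was not tested.

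Adding f-PRDM16 back, with Prdm16 8.57 log2 units above WT+EV (edgeR adjusted p = 1.5e-07), raised Il1b, Il1r2, Nlrp3 and Casp1 and lowered Il1rn. That was 4 of 9 members higher and 1 lower in KO+f against KO+EV, beside 11.3% of all genes called in either direction, 6.88% higher and 4.39% lower, with a median log2 change of 0.68 over the members and -0.01 over all genes. Here 3 of 10 immediate early genes, 2 of 10 monocyte and macrophage and 1 of 14 granulocyte markers passed higher, with none lower. Their part in this result was not tested. The isoforms were then compared directly, in KO+s against KO+f, at Prdm16 levels that overlapped. Tnf, Tnfaip2 and Il1rn were higher with s-PRDM16, which is 3 of 9 members and none lower, beside 3.81% of all genes called in either direction, 2.05% higher and 1.76% lower. The members' median log2 change was 1.05, and that of all genes -0.02. Of the granulocyte markers 7 of 14 were also higher in KO+s than in KO+f and none lower. The monocyte and macrophage markers summed to 2549 to 3768 CPM in KO+s and to 1496 to 1725 CPM in KO+f, without overlap, with 2 of 10 passing higher and 1 lower. The part of these markers in the result was not tested. The comparisons of KO+s and of KO+f with KO+EV share the same KO+EV libraries.

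**Figure D1:**
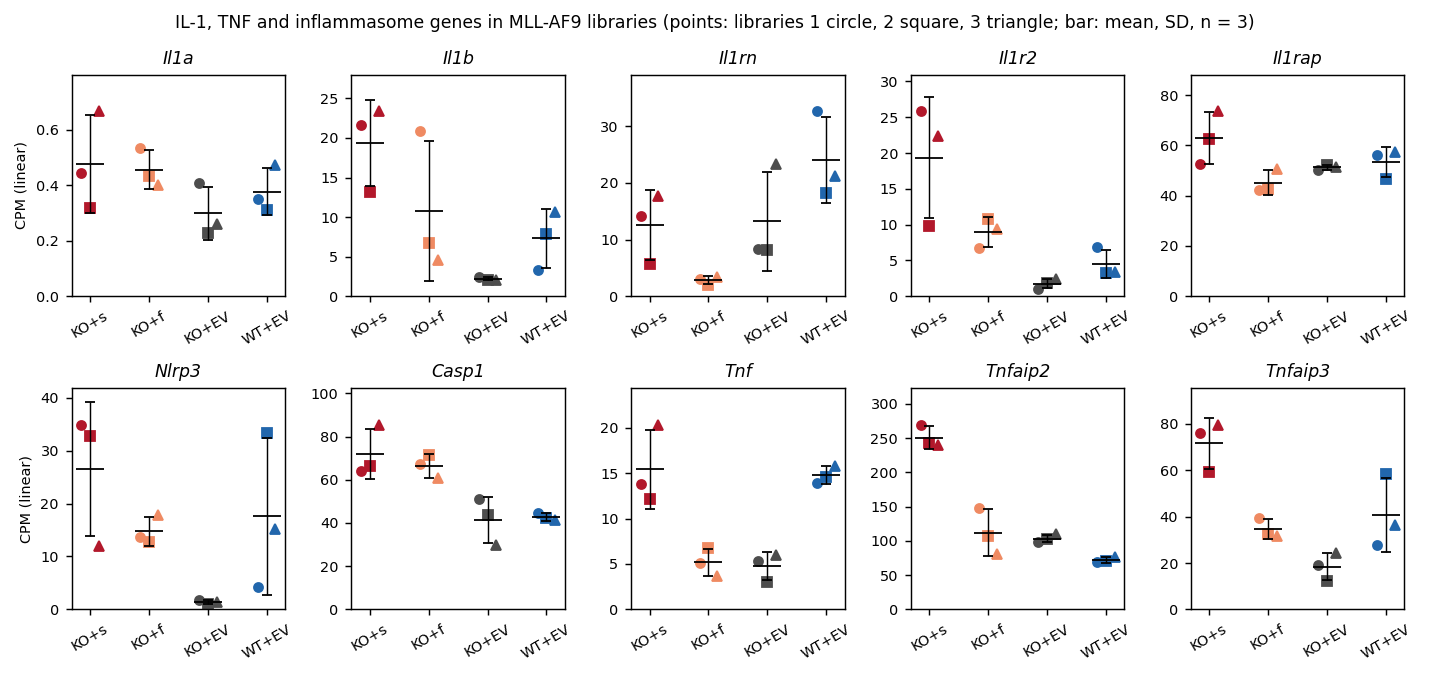
CPM of the 10 members in the leukaemia libraries on linear axes from 0, with the groups KO+s, KO+f, KO+EV and WT+EV from left to right. Points are single libraries and bars the mean and SD (n = 3). Nlrp3 in the KO+EV libraries lies at 1.73 CPM or less, under all other libraries.

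Among the ligands, Il1b had 21.6, 13.2 and 23.4 CPM in KO+s, 20.9, 6.76 and 4.57 CPM in KO+f libraries, 2.44, 2.06 and 2.08 CPM in KO+EV, and 3.32, 7.85 and 10.7 CPM in WT+EV. KO+EV was lowest and did not overlap with any other group, while the first KO+f library lay among the KO+s libraries and the other 2 KO+f libraries among WT+EV. Here and below, complete separation of 3 libraries from 3 arises by chance for 10% of genes without a difference. The share of all genes that separated was not counted. As 32.4% of all genes passed in KO+s against KO+EV, separation is not read as particular to the members. Il1b was 3.14 ± 0.58 log2 units higher in KO+s than in KO+EV (SE, edgeR adjusted p = 0.00249). For KO+f against KO+EV the log2 change was 2.29 ± 0.57 (edgeR adjusted p = 0.0269), and without the first KO+f library it was 1.37 with an adjusted p of 0.0899. That call was also lost without any single KO+EV library, with a highest adjusted p of 0.0899 over all 6 fits. Between KO+s and KO+f the log2 difference was 0.85 ± 0.53 and did not pass (edgeR adjusted p = 0.368). Against WT+EV, KO+EV differed by -1.73 ± 0.56 log2 units without passing (edgeR adjusted p = 0.134). In the first KO+f library, immediate early genes summed to 2960 CPM, against 1248 and 868.2 CPM in the other 2. Il1a stayed between 0.229 and 0.666 CPM in all 12 leukaemia libraries, 98 counts in all, and was too low for the filter.

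The antagonist Il1rn followed another order. It had 14.2, 5.74 and 17.8 CPM in KO+s, 3.06, 2.01 and 3.37 CPM in KO+f libraries, 8.24, 8.10 and 23.4 CPM in KO+EV, and 32.6, 18.2 and 21.3 CPM in WT+EV. KO+f was lowest and overlapped with no other group, and the high KO+EV value was that of the third library. The log2 change was -2.23 ± 0.51 in KO+f against KO+EV (SE, edgeR adjusted p = 0.0199), and -1.53 with an adjusted p of 0.0512 without the third KO+EV library. That call was also lost without the first or the second KO+f library, with a highest adjusted p of 0.0795. KO+f lay 3.09 ± 0.52 log2 units under WT+EV (edgeR adjusted p = 0.0053), and this call held in each of 6 fits without 1 library. KO+s exceeded KO+f by 2.15 ± 0.51 log2 units (edgeR adjusted p = 0.0407), a call kept only in the fit without the second KO+s library and otherwise lost, with a highest adjusted p of 0.148. KO+s and KO+EV differed by -0.07 ± 0.48 log2 units (edgeR adjusted p = 0.924).

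The ratio of Il1b counts to Il1rn counts within a library depends on neither depth nor scaling. It was 1.52, 2.3 and 1.31 in KO+s, 6.83, 3.36 and 1.36 in KO+f, 0.296, 0.254 and 0.0891 in KO+EV, and 0.102, 0.432 and 0.502 in WT+EV. The ratio was higher in all 6 add-back libraries than in all 6 others. The transcripts' lengths also enter it, so only differences between libraries can be read, not which gene was the more abundant.

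Among the receptors, the decoy Il1r2 had 25.8, 9.79 and 22.4 CPM in KO+s, 6.71, 10.8 and 9.41 CPM in KO+f libraries, 1.02, 1.83 and 2.34 CPM in KO+EV, and 6.82, 3.25 and 3.39 CPM in WT+EV. KO+EV was again lowest, without overlap, and KO+s and KO+f overlapped through the second library of each. Il1r2 rose by 3.48 ± 0.46 log2 units in KO+s (edgeR adjusted p = 0.000465) and by 2.37 ± 0.45 in KO+f (edgeR adjusted p = 0.00861) against KO+EV, and both calls held in all 6 fits without 1 library. It was also 2.11 ± 0.43 log2 units higher in KO+s than in WT+EV (edgeR adjusted p = 0.00549). The difference of KO+s from KO+f was 1.11 ± 0.41 (edgeR adjusted p = 0.143), and that of KO+EV from WT+EV -1.37 ± 0.44 (edgeR adjusted p = 0.131). Il1rap, the accessory chain, passed in none of the 6 leukaemia comparisons. Its means were 62.9 ± 10.4 CPM in KO+s, 45.2 ± 4.83 in KO+f, 51.3 ± 1.02 in KO+EV and 53.3 ± 5.90 in WT+EV (SD, n = 3 each).

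Of the inflammasome pair, the sensor Nlrp3 had the largest log2 changes of the members in the 3 comparisons that involve KO+EV. It had 34.9, 32.8 and 11.99 CPM in KO+s, 13.7, 12.7 and 17.9 CPM in KO+f libraries, 1.73, 1.01 and 1.30 CPM in KO+EV, and 4.14, 33.4 and 15.2 CPM in WT+EV. The KO+EV libraries lay below all others, and the WT+EV libraries spanned nearly the whole range of the add-back libraries. Nlrp3 was 3.71 ± 0.68 log2 units below WT+EV in KO+EV cells (a log2 change of -3.71, edgeR adjusted p = 0.0306). That call was lost without the third WT+EV, the first KO+EV or the second KO+EV library, with adjusted p-values of 0.0589, 0.0544 and 0.115. Against KO+EV, Nlrp3 rose by 4.30 ± 0.70 log2 units in KO+s (edgeR adjusted p = 0.0014) and by 3.45 ± 0.68 in KO+f (edgeR adjusted p = 0.0117). The KO+f call had an adjusted p of 0.0535 without the second KO+EV library. KO+s and KO+f did not differ past the threshold (0.85 ± 0.59, edgeR adjusted p = 0.426), and neither did KO+s and WT+EV (0.59 ± 0.59, edgeR adjusted p = 0.493).

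The protease Casp1 moved less. It had 64.3, 66.6 and 85.5 CPM in KO+s, 67.4, 71.4 and 60.7 CPM in KO+f libraries, 51.0, 43.6 and 29.7 CPM in KO+EV, and 44.7, 42.5 and 41.3 CPM in WT+EV. Every add-back library was above every KO+EV and WT+EV library. The log2 change against KO+EV was 0.80 ± 0.18 in KO+s (edgeR adjusted p = 0.0066) and 0.68 ± 0.18 in KO+f (edgeR adjusted p = 0.0337). The lowest KO+EV value was that of the third library, and without it the KO+f change was 0.50 with an adjusted p of 0.0728. The KO+f call was also lost without the second KO+EV, the first KO+f or the second KO+f library, with a highest adjusted p of 0.099. KO+EV and WT+EV differed by -0.05 ± 0.18 (edgeR adjusted p = 0.925).

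The cytokine Tnf distinguished the isoforms. It had 13.8, 12.1 and 20.3 CPM in KO+s, 5.16, 6.71 and 3.68 CPM in KO+f libraries, 5.29, 3.02 and 5.94 CPM in KO+EV, and 13.9, 14.6 and 15.8 CPM in WT+EV. KO+s and WT+EV lay in one range, KO+f and KO+EV in a lower one, and the ranges did not overlap. Tnf was 1.64 ± 0.31 log2 units below WT+EV in KO+EV cells (a log2 change of -1.64, edgeR adjusted p = 0.0297), a call that passed in only 1 of 6 fits without 1 library, that without the third KO+EV library, with adjusted p-values of 0.021 to 0.0975. It rose in KO+s against KO+EV by 1.70 ± 0.31 (edgeR adjusted p = 0.0021) and did not pass in KO+f against KO+EV, at 0.13 ± 0.30 (edgeR adjusted p = 0.81). KO+s exceeded KO+f by 1.57 ± 0.31 log2 units (edgeR adjusted p = 0.0208). Without the first KO+f, the third KO+f, the first KO+s or the third KO+s library that call was lost, with a highest adjusted p of 0.0993. KO+f lay under WT+EV at -1.51 ± 0.31 (edgeR adjusted p = 0.0122), in all 6 fits without 1 library.

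Of the TNF-induced genes, Tnfaip2 had 269.6, 242 and 239.8 CPM in KO+s, 148, 107 and 80.7 CPM in KO+f libraries, 98.0, 103 and 109 CPM in KO+EV, and 69.7, 69.9 and 77.0 CPM in WT+EV. KO+s was above all other libraries, KO+f overlapped with KO+EV, and WT+EV was lowest. Tnfaip2 rose in KO+s by 1.28 ± 0.18 log2 units against KO+EV (edgeR adjusted p = 0.000591), by 1.16 ± 0.18 against KO+f (edgeR adjusted p = 0.00832) and by 1.80 ± 0.18 against WT+EV (edgeR adjusted p = 0.00015). The call against KO+f had an adjusted p of 0.0543 without the first KO+s library. In KO+EV against WT+EV the change was 0.52 ± 0.18, upward where the changes of Nlrp3 and Tnf were downward, and did not pass (edgeR adjusted p = 0.147).

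The feedback inhibitor Tnfaip3 (A20) had 76.1, 59.1 and 79.7 CPM in KO+s, 39.5, 32.4 and 31.8 CPM in KO+f libraries, 19.0, 12.3 and 24.2 CPM in KO+EV, and 27.6, 58.3 and 36.3 CPM in WT+EV. The levels of KO+s, KO+f and KO+EV formed 3 separate steps, and WT+EV overlapped with KO+f only. Tnfaip3 rose by 1.96 ± 0.29 log2 units in KO+s against KO+EV (edgeR adjusted p = 0.000819). Its other leukaemia changes did not pass: -1.14 ± 0.29 in KO+EV against WT+EV (edgeR adjusted p = 0.0638), 0.91 ± 0.28 in KO+f against KO+EV (edgeR adjusted p = 0.0612) 1.05 ± 0.28 in KO+s against KO+f (edgeR adjusted p = 0.0593), 0.81 ± 0.28 in KO+s against WT+EV (edgeR adjusted p = 0.0552) and -0.24 ± 0.28 in KO+f against WT+EV (edgeR adjusted p = 0.618). The first and second of these passed without the third KO+EV library, at -1.38 (adjusted p = 0.0346) and 1.15 (adjusted p = 0.0433). The KO+s change against WT+EV passed without the second WT+EV library, at 1.16 (adjusted p = 0.0165).

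**Figure D2:**
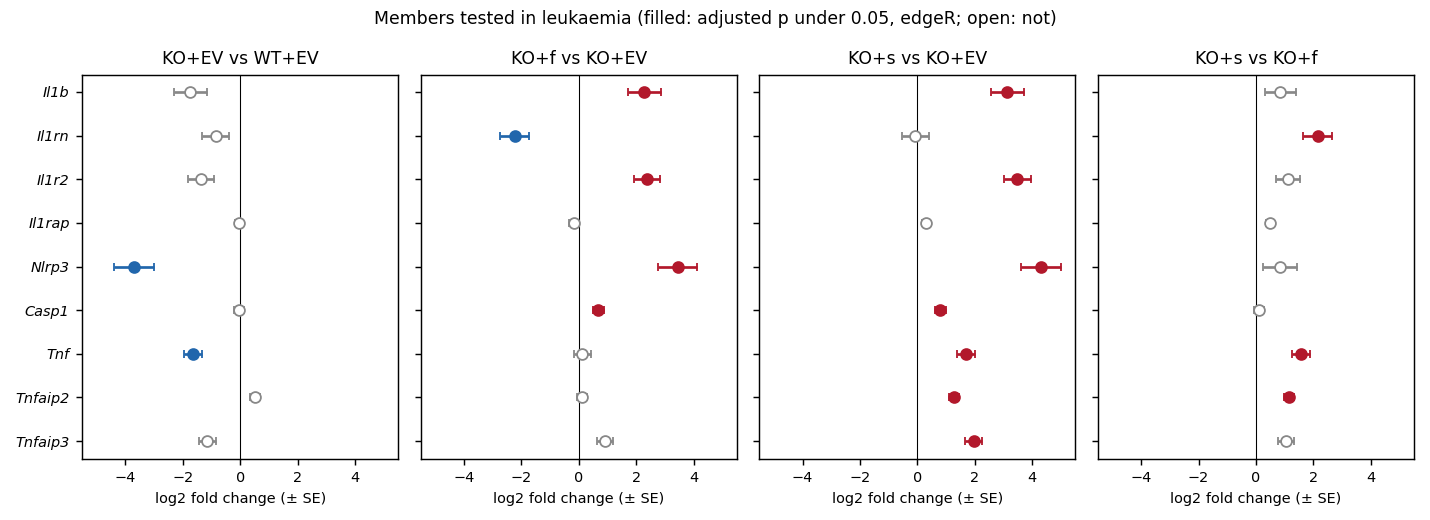
Log2 fold changes with SE of the 9 members tested in 4 leukaemia comparisons, on linear axes of log2 units, with filled points for an edgeR adjusted p under 0.05. Filled points number 2, 5, 7 and 3 from left to right, and Il1rn is the 1 filled point to the left of 0 in KO+f against KO+EV.

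The add-back groups were also set against wild-type leukaemia. In KO+s against WT+EV, Il1r2, Casp1 and Tnfaip2 were higher, which is 3 of 9 members with none lower, beside 23.7% of all genes called in either direction, 11.8% higher and 11.9% lower, so that the members' count in either direction was near the background. The Casp1 change was 0.75 ± 0.18 (edgeR adjusted p = 0.0123, or 0.0517 without the third KO+s library), and the members' median log2 change was 0.75 against -0.01 for all genes. In KO+f against WT+EV, 2 of 9 members were higher and 2 lower, beside 9.97% of all genes called in either direction, 6.11% higher and 3.86% lower, and the medians were -0.24 for the members and -0.00445 for all genes. The members lower were Il1rn and Tnf. The higher ones were Casp1 (0.63 ± 0.18, edgeR adjusted p = 0.0478) and Tnfaip2 (0.63 ± 0.18, edgeR adjusted p = 0.0432). Casp1 passed in none of the 6 fits without 1 library (highest adjusted p 0.135), and Tnfaip2 passed in 1, that without the third KO+f library (highest adjusted p 0.125).

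The wider pathway was followed through 5 lists with 83 other genes, of which 73 were tested in leukaemia. These lists too were chosen with earlier results of these data known. In KO+s against KO+EV 27 passed higher and 6 lower, beside 15.9% and 16.6% of all genes, with a median log2 change of 0.34 and -0.01 over all genes. In KO+f against KO+EV 11 passed higher and 2 lower, beside 6.88% and 4.39% of all genes. In KO+EV against WT+EV 1 passed higher and 3 lower, beside 0.903% and 1.2% of all genes. In KO+s against KO+f 1 passed higher and 2 lower, a share near the 3.81% of all genes called in either direction. Against WT+EV, 25 passed higher and 5 lower in KO+s, beside 11.8% and 11.9% of all genes, and 5 higher and none lower in KO+f, beside 6.11% and 3.86%. The HSC comparisons called none of the 74 to 76 pathway genes tested.

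Receptors of the IL-1 family followed different orders. Il18rap, the accessory chain of the IL-18 receptor, averaged 68.7 ± 8.65 CPM in KO+s, 53.6 ± 14.5 in KO+f, 18.5 ± 0.926 in KO+EV and 40.7 ± 4.39 in WT+EV (SD, n = 3 each), and KO+EV overlapped with no other group. Its log2 change was -1.14 in KO+EV against WT+EV (edgeR adjusted p = 0.0196), 1.54 in KO+f against KO+EV (edgeR adjusted p = 0.00113) and 1.89 in KO+s against KO+EV (edgeR adjusted p = 0.000102). Il1r1, the signalling receptor for IL-1, averaged 10.5 ± 2.94 CPM in KO+s, 12.8 ± 5.10 in KO+f, 1.16 ± 0.932 in KO+EV and 1.04 ± 0.784 in WT+EV. The add-back groups were high and both EV groups low, without overlap, and KO+EV against WT+EV did not pass (0.17, edgeR adjusted p = 0.921). Il1r1 rose by 3.17 log2 units in KO+s (edgeR adjusted p = 0.00308) and 3.46 in KO+f (edgeR adjusted p = 0.00729) against KO+EV, and by 3.35 in KO+s (edgeR adjusted p = 0.00356) and 3.64 in KO+f (edgeR adjusted p = 0.00597) against WT+EV. Il1rl2, the IL-36 receptor, was higher than in WT+EV in KO+EV (1.06, edgeR adjusted p = 0.0297), KO+f (0.86, edgeR adjusted p = 0.0215) and KO+s (1.45, edgeR adjusted p = 0.000683). Without 1 library, the Il1rl2 call in KO+EV was lost in 3 of 6 fits, those without the second KO+EV, the second WT+EV or the third WT+EV library (highest adjusted p 0.121 over its alternatives). The Il1rl2 call in KO+f was lost in 4 of 6, without the first or the second KO+f or the second or the third WT+EV library (highest adjusted p 0.0828). The Il18rap call in KO+EV was lost without the second KO+EV library (highest adjusted p 0.0689 over its alternatives).

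Among the other genes with the smallest adjusted p-values, Irak3, an inhibitor of IL-1 receptor signalling, rose in KO+s by 1.44 log2 units against KO+EV (edgeR adjusted p = 0.000591), 1.01 against KO+f (edgeR adjusted p = 0.0208) and 1.20 against WT+EV (edgeR adjusted p = 0.00187). Itch, a ubiquitin ligase that works with A20, changed by -0.41 in KO+EV against WT+EV (edgeR adjusted p = 0.0486), 0.54 in KO+f (edgeR adjusted p = 0.0063) and 0.73 in KO+s (edgeR adjusted p = 0.000429) against KO+EV. Peli1, a ubiquitin ligase of IL-1 receptor signalling, fell in KO+EV against WT+EV (-0.94, edgeR adjusted p = 0.0306). Aim2, a DNA sensor, was 1.04 log2 units higher in KO+f than in WT+EV (edgeR adjusted p = 0.0068). Several genes moved the other way. Adam17, the protease that releases TNF from the cell surface, fell by 0.87 log2 units in KO+s (a change of -0.87, edgeR adjusted p = 0.000799) and by 0.61 in KO+f (-0.61, edgeR adjusted p = 0.0138) against KO+EV. Panx1, a membrane channel, fell in KO+s against KO+EV (-1.22, edgeR adjusted p = 0.00416), KO+f (-1.32, edgeR adjusted p = 0.0199) and WT+EV (-1.11, edgeR adjusted p = 0.00942). Il33, an alarmin of the IL-1 family, was low throughout, at 0.144 ± 0.0680 CPM in KO+s, 0.738 ± 0.208 in KO+f, 0.748 ± 0.454 in KO+EV and 1.93 ± 0.291 in WT+EV, and its log2 change was -2.30 in KO+s against KO+EV (edgeR adjusted p = 0.00789). Tnfaip8l1 fell in KO+f against KO+EV (-0.79, edgeR adjusted p = 0.0357), and the sensor Nlrp1b lay under WT+EV in KO+s (-2.95, edgeR adjusted p = 0.00711). In fits without 1 library, the Tnfaip8l1 call was lost in all 6, and those of Itch and Peli1 in KO+EV against WT+EV in 5 of 6, all but the fit without the third KO+EV library. The Irak3 call in KO+s against KO+f was lost without the third KO+f, the first KO+s or the third KO+s library (highest adjusted p 0.109), and that of Panx1 without the first or the third KO+s library (highest adjusted p 0.109). The Adam17 call in KO+f was lost without the second KO+EV library (highest adjusted p 0.0735 over its alternatives).

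**Figure D3:**
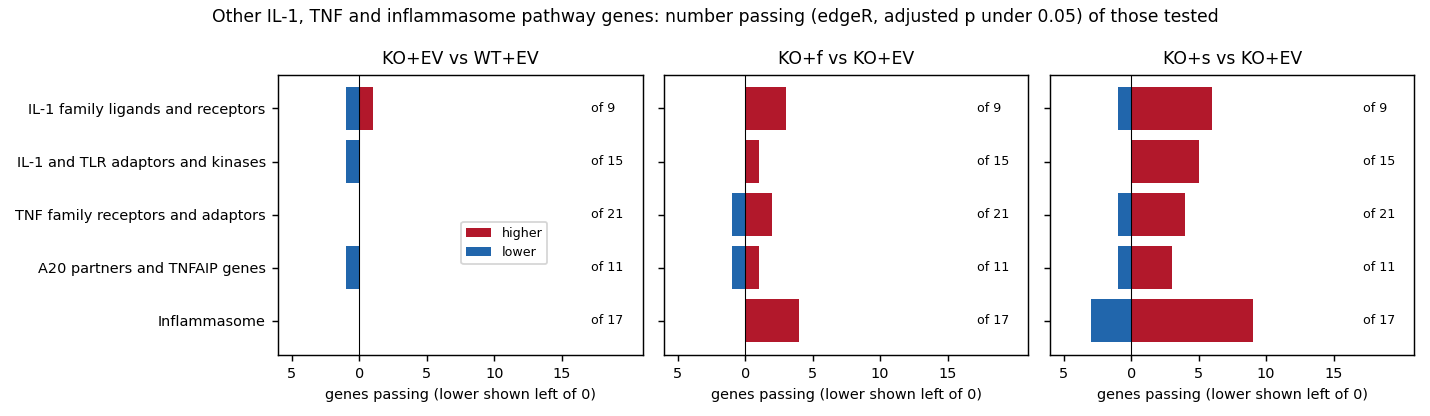
Number of other pathway genes passing in 3 leukaemia comparisons, by list, with higher genes drawn to the right of 0 and lower genes to the left, and the number tested at the right. In KO+s against KO+EV the inflammasome list has 9 higher and 3 lower of 17, and the IL-1 family list 6 higher and 1 lower of 9.

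For 4 members, the genes with the most similar profile over the 12 leukaemia libraries were listed, by the root-mean-square difference of centred log2(CPM + 1) among 10739 genes. Genes with a mean log2(CPM + 1) under 1 and Gm-numbered and Rik names were left out, and members were not ranked. For Il1b they were Tob1 (0.390), Csrnp1 (0.433) and Cd300lf (0.449), beside a spread of Il1b itself of 1.09 on the same scale. For Nlrp3 they were Dusp6 (0.643), Sik1 (0.724) and Gpr183 (0.727), beside a spread of 1.47. No gene ranked lay as near to Nlrp3 as Tob1 to Il1b, but the spreads of these members differ. Those nearest to Tnf were Syne1 (0.336), Mir23a (0.338) and Ltb4r1 (0.365), beside a spread of 0.775. Those nearest to Il1r2 were Kifc3 (0.363), Padi3 (0.411) and Fam167a (0.447), beside a spread of 1.12. These libraries share their groups, so the values describe likeness only.

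In normal HSCs, no member passed in any of the 3 knockout comparisons. In adult marrow 0.0% of 13495 genes were called by edgeR, with 1141 at an unadjusted p under 0.05, and DESeq2 called 84 genes and no member. The members' median log2 change was 0.17, beside -0.03 over all genes. Tnf came closest, with 1.95, 2.91, 1.67 and 2.96 CPM in KO and 7.80, 10.8, 2.75 and 5.51 CPM in wild type. Only the third wild-type library reached down into the KO range. The log2 change was -1.50 ± 0.47 (SE, n = 4 each, edgeR adjusted p = 0.523). The immediate early genes summed to 8402 to 11170 CPM in KO and to 9631 to 22040 CPM in wild type, with the lowest wild-type sum in the fourth library, and their part in the Tnf values was not tested. Tnfaip3 had 59.0, 44.2, 55.4 and 60.5 CPM in KO and 119, 54.5, 93.5 and 46.2 CPM in wild type, which overlap (-0.52 ± 0.27, edgeR adjusted p = 0.613).

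The low members in marrow varied widely between libraries. Il1b had 0, 0.4002, 0 and 4.36 CPM in KO and 0.306, 0.890, 0.756 and 0 CPM in wild type, and its highest value was that of the fourth KO library. Il1rn had 0.765, 6.99, 0 and 8.47 CPM in KO and 0, 0.855, 0 and 2.22 CPM in wild type (2.39 ± 1.56, edgeR adjusted p = 0.659). In the fourth KO library the granulocyte markers summed to 2061 CPM, against 567.8 to 825.7 CPM in the other KO libraries and 789.1 to 900.5 CPM in wild type. Il1a had 59 counts over the 4 KO libraries and 7 over the 4 wild-type libraries, with levels of 0.164 to 0.946 CPM in KO and 0 to 0.229 CPM in wild type, and was under the filter. Casp1, Il1rap, Il1r2, Nlrp3 and Tnfaip2 overlapped between genotypes, with log2 changes of -0.13 to 0.43 and edgeR adjusted p-values of 0.702 to 0.99.

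In fetal liver HSCs with total PRDM16 loss, edgeR called 0.0% of 15586 genes, with 738 at an unadjusted p under 0.05, and DESeq2 called 77 genes and no member. Libraries with the same number deviated together here, and with the number as a block edgeR called 176 genes (1.13%, with 0.526% higher and 0.603% lower), again without a member. The median log2 change without the block was 0.50 over 8 members and -0.000605 over all genes. The decoy receptor Il1r2 had 21.8, 18.6 and 21.1 CPM in KO and 14.9, 15.5 and 8.62 CPM in wild type. All KO libraries were above all wild-type ones, but the change of 0.66 ± 0.24 did not pass (edgeR adjusted p = 1.0, or 0.182 with the block). Tnfaip2 had 18.3, 16.2 and 19.4 CPM in KO and 13.4, 13.0 and 9.005 CPM in wild type, likewise without overlap (0.61 ± 0.20, edgeR adjusted p = 1.0, or 0.172 with the block). Of genes without a difference, 10% separate 3 libraries from 3 in this way by chance, and the share over all genes was not counted. Casp1 had 5.51, 7.54 and 23.2 CPM in KO and 4.81, 5.16 and 15.4 CPM in wild type. The third library was high in both genotypes, and Casp1 was higher in KO in each numbered pair. Casp1 did not pass (0.51 ± 0.68, edgeR adjusted p = 1.0, or 0.276 with the block).

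The cytokine genes in this set were low or flat. Il1b had 5.23, 1.90 and 0.720 CPM in KO and 2.52, 0.108 and 0 CPM in wild type, with KO above wild type in each numbered pair. The log2 change was 1.60 ± 1.48 (edgeR adjusted p = 1.0), or 2.60 ± 0.83 with the block (edgeR adjusted p = 0.247), and without 1 library it ranged over 0.62 to 5.60. Il1rn, under the filter, had 0.153, 1.18 and 2.19 CPM in KO and 0.222, 0.144 and 0.0880 CPM in wild type. Tnf averaged 11.8 ± 0.986 CPM in KO and 10.9 ± 3.65 CPM in wild type (SD, n = 3 each), and Tnfaip3 13.1 ± 4.22 CPM in KO and 9.35 ± 3.41 CPM in wild type. Il1rap and Nlrp3 overlapped between genotypes as well, and Il1a stayed under 0.5 CPM. Beside the higher KO values of Il1r2, Tnfaip2, Casp1 and Il1b, the granulocyte markers summed to 848.8, 1556 and 14100 CPM in KO and to 250.9, 341.9 and 1817 CPM in wild type. Monocyte and macrophage markers summed to 214.1, 339.0 and 1060 CPM in KO and to 105.2, 129.8 and 202.2 CPM in wild type, and mast cell and basophil markers to 64.28, 96.48 and 54.98 CPM in KO and to 49.81, 29.46 and 22.67 CPM in wild type. All 3 sums were higher in KO in each numbered pair, and their part in the members' values was not tested.

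The loss of f-PRDM16 alone gave no call either, at 0.0% of 13631 genes with and without the block, with 357 genes at an unadjusted p under 0.05 without it and 1716 with it. DESeq2 called 4 genes and no member. The median log2 change was 0.61 over 9 members and -0.01 over all genes. Il1rap had 23.9, 25.9 and 25.7 CPM in KO and 19.4, 18.7 and 16.7 CPM in wild type, without overlap, and Il1b 1.88, 1.90 and 1.83 CPM in KO and 1.62, 0.568 and 0.787 CPM in wild type, also without overlap. Neither passed (0.46 ± 0.15 and 0.91 ± 0.53, both with an edgeR adjusted p of 0.999). Such separation of 3 libraries from 3 arises by chance for 10% of genes without a difference. Il1r2 had 63.5, 38.5 and 65.4 CPM in KO and 58.0, 15.995 and 35.8 CPM in wild type, and Tnfaip2 27.2, 57.8 and 77.4 CPM in KO and 35.7, 21.3 and 41.2 CPM in wild type. Il1r2 was higher in KO in each numbered pair, and Tnfaip2 in 2 of 3. With the block and both libraries numbered 1 left out, a setting chosen after seeing the data, 236 genes passed and these 2 members with them, at 1.07 (edgeR adjusted p = 0.0499) for Il1r2 and 1.18 (edgeR adjusted p = 0.0494) for Tnfaip2. Number 1 is the pair in which Tnfaip2 was lower in KO. With all libraries and the block, Il1r2 had an edgeR adjusted p of 0.318 and Tnfaip2 of 0.521. With the block and number 2 or number 3 left out, 0 genes passed, with 766 and 625 at an unadjusted p under 0.05, and the adjusted p-values were 0.856 and 0.840 for Il1r2 and 0.947 and 0.861 for Tnfaip2. The granulocyte markers summed to 8316, 32090 and 50800 CPM in KO and to 7547, 3350 and 20820 CPM in wild type, higher in KO in each pair. Monocyte and macrophage markers summed to 896.8, 1782 and 3287 CPM in KO and to 902.6, 376.6 and 1607 CPM in wild type. Mast cell and basophil markers summed to 92.09, 127.1 and 69.73 CPM in KO and to 107.3, 23.34 and 18.86 CPM in wild type. Both of these sums were lower in KO in number 1 and higher in numbers 2 and 3. The part of the markers in the members' values was not tested.

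**Figure D4:**
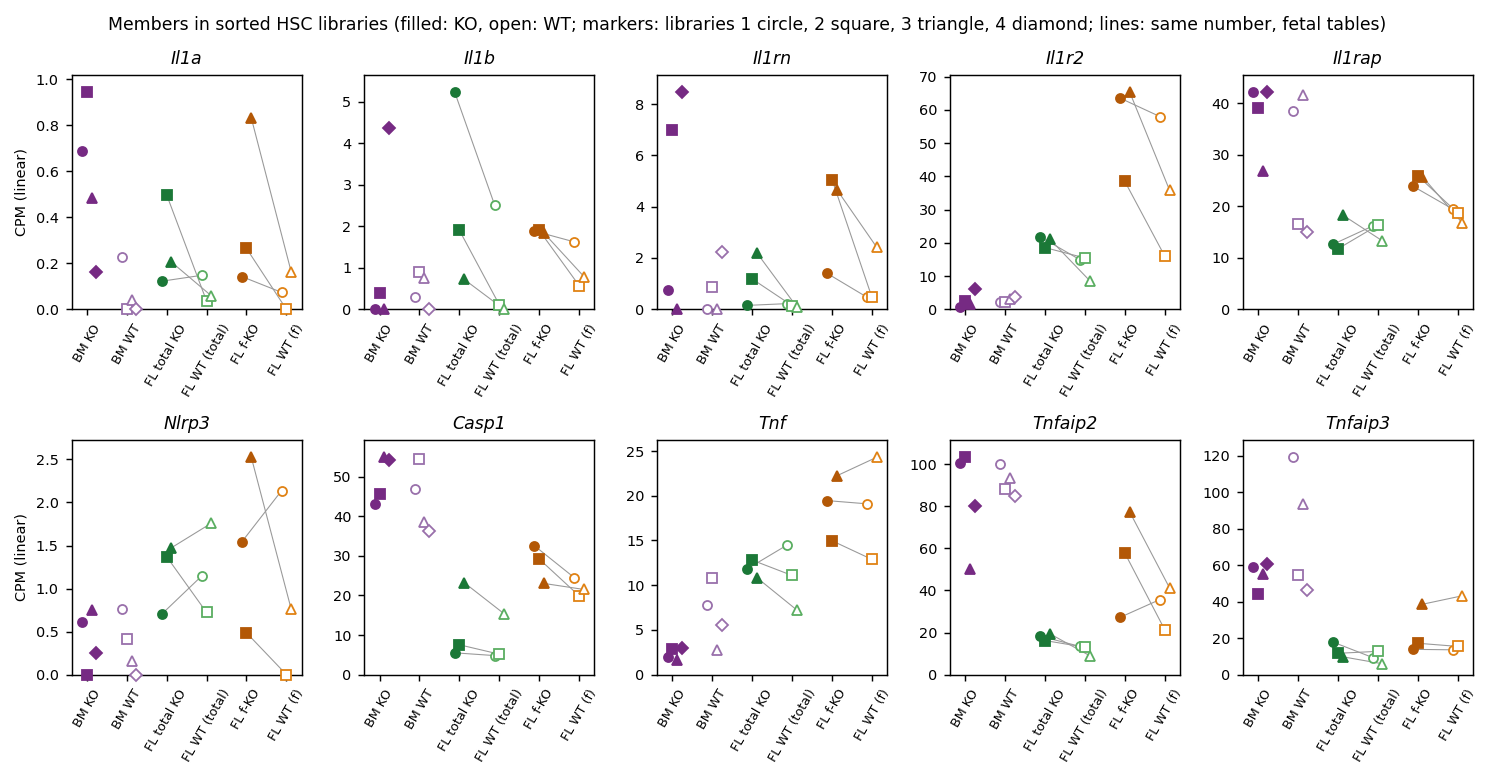
CPM of the 10 members in the HSC libraries on linear axes from 0, each KO group left of its wild type, with filled markers for KO, open ones for wild type and lines between fetal libraries of the same number. The KO libraries of Il1r2 lie at 18.6 CPM or more in the total-KO set, above the wild-type libraries at 15.5 CPM or less.

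The remaining members of the f-PRDM16 set showed small or uneven differences. Il1rn had 1.40, 5.06 and 4.66 CPM in KO and 0.467, 0.463 and 2.41 CPM in wild type, higher in KO in each pair (1.74 ± 0.84, edgeR adjusted p = 0.999). Casp1 had 32.6, 29.2 and 23.0 CPM in KO and 24.5, 19.9 and 21.5 CPM in wild type, and 1 KO library fell below the highest wild-type one (0.36 ± 0.19, edgeR adjusted p = 0.999). Tnf averaged 18.9 ± 3.67 CPM in KO and 18.8 ± 5.72 CPM in wild type (SD, n = 3 each), and its log2 change was 0.01 ± 0.28. Tnfaip3 and Nlrp3 overlapped, and Il1a stayed at or under 0.833 CPM.

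The changes of the libraries labelled PRDM16-KO in fetal and adult HSCs were compared by testing their difference. The adult libraries so labelled showed no lower Prdm16 count than wild type, so no direction is read from that label. The fetal change of Tnf exceeded the adult one by 1.59 ± 0.57 log2 units (edgeR adjusted p = 0.592), and that of Tnfaip3 by 0.98 ± 0.45 (edgeR adjusted p = 0.626). No member passed, and 1 of 15949 genes (0.00627%) did. The total and f-PRDM16 losses in fetal HSCs differed for no member and for 0.0% of 15777 genes, with 335 at an unadjusted p under 0.05, and DESeq2 called no member. The member with the smallest unadjusted p there was Il1rap, at -0.54 ± 0.27 (edgeR adjusted p = 1.0).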

How the data were processed

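Poly-A RNA of leukaemia cells (TruSeq) and amplified RNA of HSCs (SMARTer) were sequenced, per the labels' protocols. The deposited values are raw counts of reads per gene, 1 table per experiment, made by the authors with bcl2fastq 2.17, TopHat and build mm9, and DESeq is also named, per the submitters' processing notes. The counting tool, annotation and use of strand are not given in the sources used here. Spike-ins (92 in each of 2 tables) and gene names repeated in a table were dropped.

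Members and lists were chosen with earlier results of these data known. Genes were kept by filterByExpr, scaled by TMM and tested with edgeR 4.0.16 (R 4.3.3, quasi-likelihood, robust), with Benjamini-Hochberg adjustment over each table and a threshold of 0.05. The 4 leukaemia groups shared 1 fit, and each HSC table had its own. For the differences between knockout changes, the total-KO fetal table was fitted jointly with the marrow or the f-PRDM16 table. These joint fits used the genes that both tables share, with filter, scaling and adjustment over the joined libraries. CPM are counts per 1000000 of the TMM-scaled total. SD is between libraries and SE is of the fit. DESeq2 1.42.0, other size factors, no filter, a replicate block, groups alone and single libraries left out were alternatives. The procedure was tested on simulated data. All 10 members are named. Of the pathway genes, those that passed with the smallest adjusted p-values were named, and some changes of those genes that also passed are not printed. No library pair (124 compared) agreed within counting noise. Same-numbered libraries deviated together in the total-KO fetal table (correlations 0.415, 0.202 and 0.626) and in the f-PRDM16 table (0.624, 0.351 and 0.519), all over 0.1. In the total-KO libraries, pairs of unlike number also reached 0.338 and 0.319, above the second of its like-numbered pairs. Such pairing did not hold in leukaemia or marrow. Intervals of depth cover counting error only.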

Additional observations from a re-analysis of the deposited data

Results flagged for a closer look

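Il1b in the fourth PRDM16-KO marrow library, at 4.36 CPM, stood far from the other 3 KO libraries (0 to 0.4002 CPM). Its gap to the nearest was 0.908 of the group's range, above Dixon's critical value. The check covered only the marrow KO and wild-type groups, member by member, which made 20 sets of values. Il1b in marrow KO was the only set above the critical value, and chance gives about 1 in 20. Leukaemia and fetal groups were not checked in this way.

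The direction for Il1b was opposite in 2 knockout comparisons, with every library of one group on one side. Complete separation of 3 libraries from 3 arises by chance for 10% of genes without a difference. Its share over all genes was not counted. The log2 change was -1.73 in KO+EV against WT+EV leukaemia and 0.91 in f-PRDM16-KO against wild-type fetal HSCs. Il1r2 likewise changed by -1.37 in KO+EV against WT+EV and by 0.66 in total-KO against wild-type fetal HSCs. None of these 4 changes passed in edgeR, and the differences between them were not tested.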

How the results depend on the processing

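All alternatives were planned except the fetal fits with the block and 1 number left out. The count of 7 members in KO+s against KO+EV was the same under every alternative. DESeq2 called 903 genes and 5 members in KO+EV against WT+EV, 2248 genes in KO+f against KO+EV, 1381 genes and 5 members in KO+s against KO+f, 2067 genes in KO+f against WT+EV and 5 members in KO+s against WT+EV. In HSCs DESeq2 called 84, 77 and 4 genes in the marrow, total-KO and f-PRDM16 tables, and 38 for the fetal minus adult difference. KO+EV against WT+EV had 1 member without the low-count filter. Fitted alone, its groups gave 1 gene and 0 members, and KO+f against KO+EV gave 392 genes and 2 members, with fewer samples in the fit. In leukaemia and marrow the replicate numbers did not pair the libraries. With the replicate block there, KO+EV against WT+EV had 1 member and KO+f against WT+EV 2, and no other member count moved by over 1.5 times. In fetal liver the block gave 176 genes for total loss, and 138, 51 and 312 with number 1, 2 or 3 left out. For f-PRDM16 loss, 236 genes and 2 members passed with the block and number 1 left out, and 0 genes and 0 members with number 2 or number 3 left out. The fetal minus adult difference had 0 genes with the block. Where no reason is given, the cause was not tested.

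Without 1 library, the genes passing ranged over 26 to 425 in KO+EV against WT+EV (members 0 to 3), 559 to 1533 in KO+f against KO+EV (2 to 5), 2732 to 3821 in KO+s against KO+EV (7 to 7), 37 to 388 in KO+s against KO+f (0 to 3), 559 to 1071 in KO+f against WT+EV (2 to 3) and 1765 to 2467 in KO+s against WT+EV (2 to 4). In marrow the range was 0 to 3 with 0 members, and no gene passed in either fetal table.

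Of the members' results under the alternatives, 869 kept direction and side of the threshold, 54 lost it, 15 gained it and 42 changed sign, none of them passing. Of the named pathway genes' results, 250 kept their call and 46 lost it. Those most often lost were Itch (8 alternatives, adjusted p up to 0.200) and Peli1 (6, up to 0.0943) in KO+EV against WT+EV, Tnfaip8l1 in KO+f against KO+EV (8, up to 0.0870) and Il33 in KO+s against KO+f (7, up to 0.157). The ranges without 1 library that crossed 0 in leukaemia were -0.22 to 0.14 for Casp1 in KO+EV against WT+EV, -0.12 to 0.32 for Tnf in KO+f against KO+EV, -0.14 to 0.30 for Tnfaip2 in KO+f against KO+EV, -0.40 to 0.62 for Il1rn in KO+s against KO+EV, -0.034 to 0.18 for Casp1 in KO+s against KO+f, -0.36 to 0.94 for Il1b in KO+f against WT+EV, -0.71 to 0.60 for Nlrp3 in KO+f against WT+EV, -0.44 to 0.11 for Tnfaip3 in KO+f against WT+EV and -0.19 to 0.22 for Tnf in KO+s against WT+EV. In marrow they were -1.81 to 1.72 for Il1b, -0.79 to 0.27 for Il1r2, -0.22 to 1.05 for Nlrp3 and -0.25 to 0.049 for Tnfaip2. In total-KO fetal HSCs they were -0.30 to 0.34 for Nlrp3, -0.32 to 0.0203 for Il1rap, -0.11 to 0.37 for Tnf and -0.38 to 1.28 for Casp1, and in f-PRDM16-KO HSCs -0.21 to 0.24 for Tnf and -0.62 to 0.67 for Tnfaip3. With the block, Il1b in marrow turned to -1.63, Tnfaip3 in f-PRDM16-KO HSCs to 0.0036, Il1rn in the fetal minus adult difference to -0.58 and Il1r2 in the total minus f-PRDM16 difference to -0.041. With the block and 1 number left out, Nlrp3 gave 0.30 and 0.11, Il1rap 0.055 and Tnf -0.044 in total-KO HSCs, and Tnf -0.058 and Tnfaip3 0.093 in f-PRDM16-KO HSCs.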
